A study of Mus musculus with 3 samples.

Results

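Notch1, Notch2 and Notch3 encode Notch receptors, and Hes1, Dtx1, Nrarp and Ptcra are known transcriptional targets of Notch signaling in thymocytes. These 7 genes, chosen by name, were followed through early T cell development among the 27734 genes listed in all of the 3 single-cell libraries of the series. When a Notch receptor on a progenitor meets a Delta-like ligand on thymic stroma, its intracellular domain is released, enters the nucleus and binds RBPJ (also called CSL) to switch on target genes. In the thymus this signal drives T lineage commitment and is needed until the pre-T cell receptor, whose invariant chain is encoded by Ptcra, takes over at β-selection. HES1 is a transcriptional repressor, DTX1 (Deltex) a ubiquitin ligase that acts on Notch, and NRARP a small feedback inhibitor of the Notch complex.

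The cells were thymocytes of C57BL/6 mice, labelled as 6 weeks of age, with no genetic change or treatment, and 4 thymi were pooled for each library. CD4+ and CD8+ cells were depleted before sorting. The first run held total double negative (DN) and TCRγδ+ thymocytes, the second held DN1 and DN2 thymocytes sorted without TCRγδ+ cells, and the third held a mixture, made after sorting, of DN1 plus DN2 cells with DN3 cells and TCRγδ+ cells. Each sort was made once, so a difference between libraries cannot be told apart from a difference between sorts, pools or reagent versions, and no test was made between libraries.

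Each library was a table of unique molecular identifiers (UMIs, counts of single captured transcripts) per gene and cell. The files held 5527, 8887 and 8869 cells, and 5516, 8852 and 7511 cells remained once cells outside 500 to 5000 genes or over 7% mitochondrial counts were removed. This is not the cell set of the study, which also removed doublets. Under the same stated limits the study reported more cells than this in the third run, and fewer in the first and the second. The kept cells had a median of 5990, 4844 and 8507 UMIs, respectively. The first and second runs shared 72 cell barcodes, the first and the third shared 3, and the second and the third shared 0. Cells were assigned to stages by gates on the UMIs of genes that were not among the 7. Il2ra (CD25) marked DN2 and DN3, Rag1 or Rag2 marked DN2b and DN3, and at least 2 UMIs of 10 progenitor genes such as Kit and Cpa3 marked the earlier cells. This gave 2211 DN2a-like, 693 DN2b-like and 2500 DN3-like cells, 2033 γδ-like cells that were high in Trdc and lacked Il2ra, and 1047 DN4-like cells with Cd4 or Cd8 transcripts but no Il2ra, of which 984 came from the first run. A further gate held 1592 cycling cells with Il2ra but without Rag transcripts, and 1165 cells of that kind were resting.

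In 2 places the data went against the intended gate names, and these names were dropped. The 347 Il2ra-negative cells with progenitor transcripts were meant to be early thymic progenitors, but Flt3 was at 0 to 4.21 CPM (counts per 1000000 UMIs) in them, while the commitment gene Bcl11b was at 379 to 571 CPM. They are called Il2ra-negative Cpa3+ cells here, since Cpa3 led them at 318 to 643 CPM. DN2a-like cells also held Bcl11b, at 539, 368 and 694 CPM over the genes listed in all libraries. This was near the 516, 361 and 758 CPM of DN2b-like cells. Without Cpa3 as a progenitor gene the DN2a-like gate held 73, 490 and 339 cells, against 277, 1354 and 580 with it. The DN2a-like name is thus that of a gate and does not place its cells before commitment. The gate for myeloid markers took 3795 cells mainly through Cst3, which gave 81.4% to 86.8% of its marker UMIs, so it was treated as a Cst3-led gate and not compared. The second run was sorted for DN1 and DN2 but held 600 DN3-like cells and 857 γδ-like cells by transcript. Among the γδ-like cells, those of the first run also held Cd8b1 at 78.0 CPM, against 2.88 and 10.6 CPM in the second and the third run, and 49.8% of them were cycling by transcript, against 21.8% and 26.3%.

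All of the 7 members lie on mouse autosomes, and the mm10 (GRCm38) annotation places Ptcra at chr17:46755663-46763712 and Notch3 at chr17:32120820-32166852, both on the minus strand. The Ptcra and Notch3 transcripts moved the same way in each tested comparison except that from Il2ra-negative Cpa3+ to DN2a-like cells. Those of Notch1 and Dtx1 moved with them, so this does not set the pair apart. The upstream windows of Ptcra and Notch3 are shown as examples. They are the 250 bases before the RefSeq start on GRCm38.p6, at chr17:46763713-46763962 for Ptcra and chr17:32166891-32167140 for Notch3, written 5′ to 3′ along the gene's strand. Capitals mark TGGGAA, the core of the RBPJ binding motif, which was searched on both strands (as TGGGAA or TTCCCA).
Ptcra: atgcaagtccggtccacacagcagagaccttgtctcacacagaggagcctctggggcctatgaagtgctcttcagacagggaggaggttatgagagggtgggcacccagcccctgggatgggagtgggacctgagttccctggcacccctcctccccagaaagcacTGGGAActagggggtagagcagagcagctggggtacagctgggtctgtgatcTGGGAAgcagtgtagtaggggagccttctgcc
Notch3: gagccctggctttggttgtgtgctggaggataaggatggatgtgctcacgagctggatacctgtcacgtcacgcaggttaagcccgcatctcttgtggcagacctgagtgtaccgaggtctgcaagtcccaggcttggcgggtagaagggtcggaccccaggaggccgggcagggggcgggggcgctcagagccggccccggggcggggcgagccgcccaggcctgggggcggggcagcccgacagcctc
The Ptcra window held 2 matches, which began 84 and 32 bases before the start. No match was found in the windows of Notch1, Notch2, Notch3, Dtx1 and Nrarp, and Hes1 was not searched. Of all 32851 RefSeq windows of the same length, 21.6% held at least 1 match, and a match is a description of the letters only.

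Of the 7 members, Ptcra differed most between DN2a-like and DN3-like cells in every run, with log2 ratios of 2.87, 3.51 and 3.90. It marks cells preparing for β-selection, and no gate used it. Its level in DN3-like cells was 282 CPM (exact Poisson 95% interval 268 to 296) in the first run, and the other two gave 337 CPM (319 to 355) and 326 CPM (315 to 338), respectively. The DN2b-like cells of these runs had 146, 76.3 and 107 CPM, while their DN2a-like cells had 38.4, 29.7 and 21.8 CPM. The order DN2a-like, DN2b-like, DN3-like was thus the same in every library, with no overlap of the intervals within a library. In Il2ra-negative Cpa3+ cells Ptcra was at 33.3, 9.66 and 4.21 CPM, which overlapped DN2a-like cells in the first run and lay below them in the other two. All intervals on levels cover counting error only.

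In the other gates the Ptcra level was mostly lower. It was 111, 117 and 61.0 CPM in the cycling Il2ra+ Rag-negative cells and 112 CPM in the DN4-like cells of the first run. γδ-like cells had 61.4 CPM in the first run and 21.9 CPM in the second, while the third run gave 1.73 CPM (9 UMIs in 718 cells). The 3 runs therefore agreed on the direction but not on the depth of the difference between γδ-like and DN3-like cells. Resting Il2ra+ Rag-negative cells differed between runs as well, at 286, 165 and 57.3 CPM, and in the first run they were not below DN3-like cells.

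Counted by cell, after each cell was thinned to 2000 UMIs so that depth was equal, Ptcra was detected in 45.1%, 46.0% and 47.8% of DN3-like cells. The corresponding shares were 6.86%, 3.77% and 5.34% of DN2a-like cells and 9.83%, 3.03% and 0.281% of γδ-like cells. As a measure of free RNA, Ptcra was found in 3.85% of the 52 B-like cells of the second run and 7.75% of the 568 B-like cells of the third, whose median depths before thinning were 10577 and 6400 UMIs against 5823 and 7445 UMIs in DN3-like cells. The B-like cells of the third run also held T lineage transcripts, and the NK-receptor gate gave lower shares of 1.70% and 1.23% in these runs, at median depths of 2788.5 and 5848 UMIs. In the second and the third run the DN2a-like shares lay at or below those of B-like cells but above those of NK-receptor cells. In the first run the NK-receptor gate gave 9.52% of 84 cells, above the DN2a-like share of 6.86% with overlapping intervals. That run held only 10 B-like cells. The answer thus depends on which cells and which run serve as background.

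**Figure D1:**
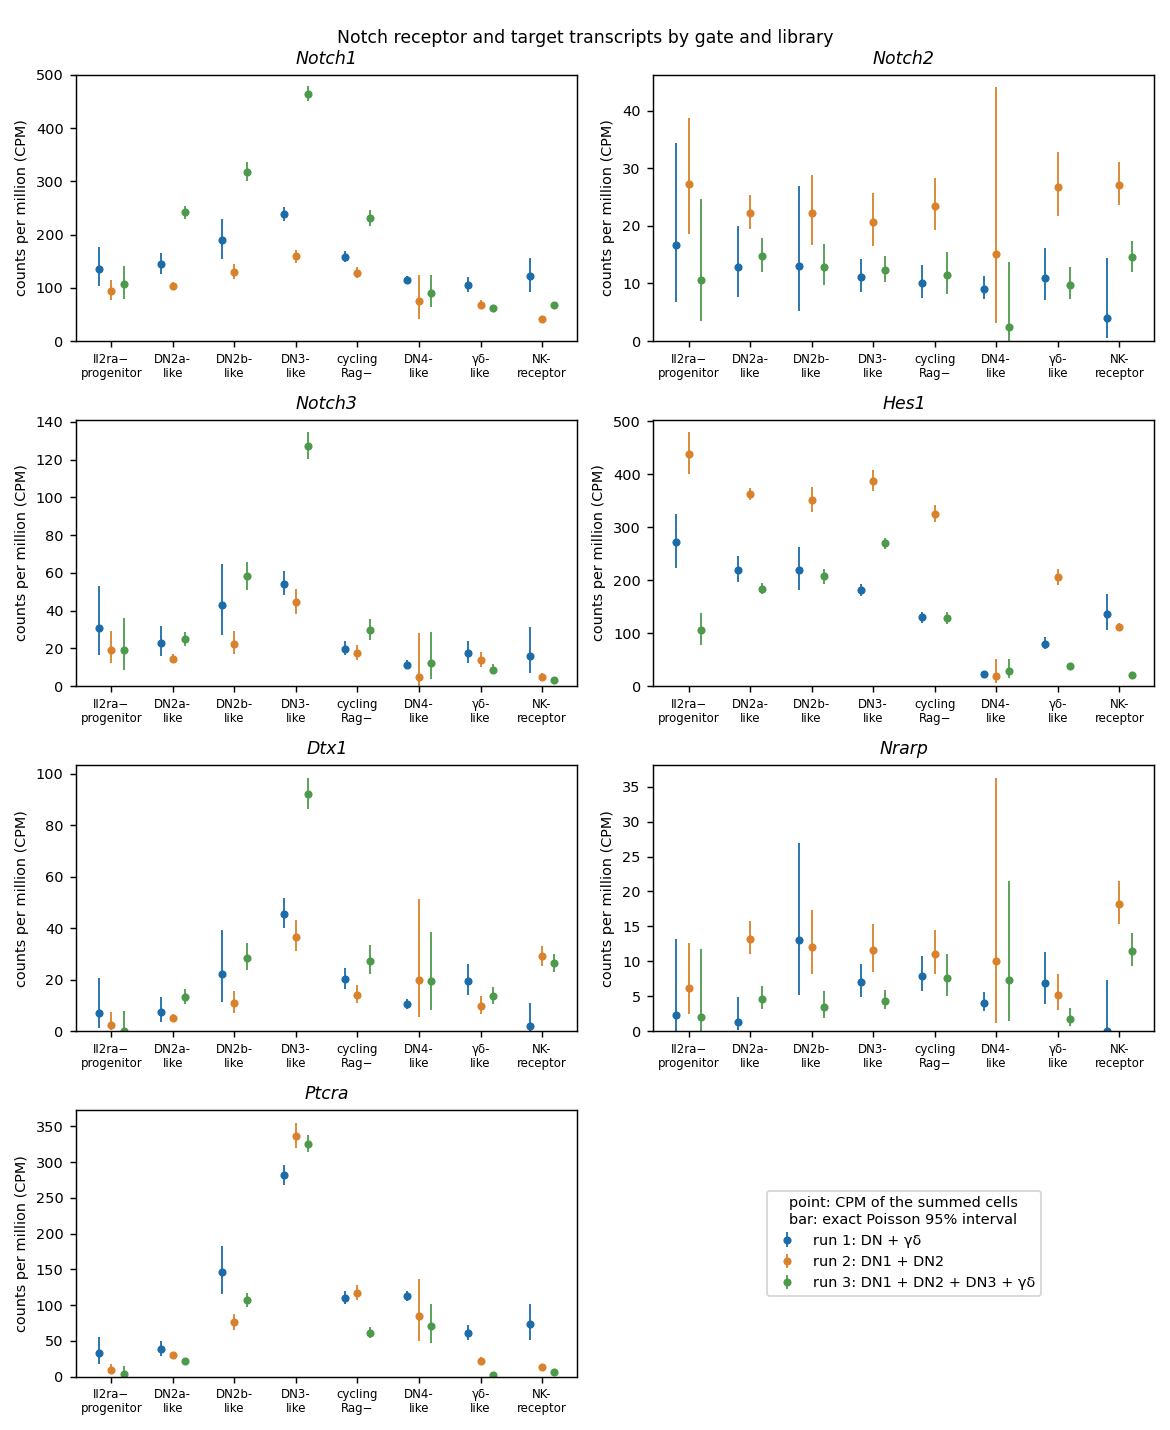
CPM of each member in summed cells (y axis, linear from 0) by gate (x axis) and library (color), with exact Poisson 95% intervals as bars. Ptcra, Dtx1, Notch1 and Notch3 peak in DN3-like cells in every run among the gates shown, for example Ptcra at 282, 337 and 326 CPM. The resting Il2ra+ Rag-negative gate, above DN3-like cells for these members in the first run (Ptcra at 286 CPM), is not drawn. Notch2 and Nrarp have no such peak.

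Among the receptors, Notch1 was present in every gate. Its level in DN3-like cells was 239, 159 and 464 CPM in the first, the second and the third run. The DN2b-like values were 189, 130 and 318 CPM, and the DN2a-like values 144, 104 and 241 CPM. Each step upward kept its direction in all 3 libraries, and the third run was higher than the others in all of these gates. In γδ-like cells Notch1 fell to 106, 68.3 and 61.3 CPM, and the intervals did not overlap those of DN3-like cells in any run. After thinning, Notch1 was detected in 38.3%, 27.8% and 61.5% of DN3-like cells and in 18.1%, 11.2% and 12.4% of γδ-like cells. B-like cells, a lineage that Notch1 signaling blocks in the thymus, still gave 9.62% in the second run and 16.9% in the third. The NK-receptor gate gave 6.10% and 11.2% in the same runs, below the γδ-like share with intervals apart in the second run and overlapping it in the third.

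Notch3, a receptor that is itself a Notch target in thymocytes, was more restricted. DN3-like cells had 54.4, 44.6 and 127 CPM in the first, the second and the third run. The level was 43.0, 22.6 and 58.2 CPM in DN2b-like cells, against 22.9, 14.4 and 24.9 CPM for the DN2a-like ones. Il2ra-negative Cpa3+ cells had 30.9, 19.3 and 18.9 CPM. Notch3 was thus highest in DN3-like cells in every run among these 4 gates, although the intervals of DN2b-like and DN3-like cells overlapped in the first run. In γδ-like cells it was at 17.4, 13.8 and 8.65 CPM, while resting Il2ra+ Rag-negative cells, at 70.9, 40.5 and 41.0 CPM, were above DN3-like cells in the first run.

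Notch2, which is known for its role in B cell and myeloid development, did not follow the stages. DN3-like cells had 11.1, 20.7 and 12.4 CPM. The values were 12.8, 22.2 and 14.8 CPM for DN2a-like cells and 10.9, 26.8 and 9.80 CPM for γδ-like cells. The second run was the highest in each of these 3 gates. Between these gates of 1 library the intervals on the levels overlapped. The interval on the log2 ratio excluded 0 only for γδ-like over DN2a-like cells in the third run, at −0.59 (−1.11 to −0.09).

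Dtx1 was low before DN3. DN3-like cells had 45.7, 36.7 and 92.3 CPM. DN2b-like cells had 22.5, 10.9 and 28.6 CPM, and DN2a-like cells had 7.41, 5.09 and 13.3 CPM. The DN3-like level was above the DN2a-like level by a log2 ratio of 2.62, 2.85 and 2.79, which is nearly the same ratio in each run despite the different levels. Dtx1 was at 20.2, 14.3 and 27.5 CPM in cycling Il2ra+ Rag-negative cells and at 19.6, 9.80 and 13.8 CPM in γδ-like cells. Resting Il2ra+ Rag-negative cells had 51.5, 32.2 and 44.0 CPM, which in the first run was above DN3-like cells with overlapping intervals. It was found in 10.7%, 8.00% and 18.6% of DN3-like cells after thinning, against 4.23% of the B-like cells of the third run.

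Hes1 had a different profile, with high levels before DN3. In DN2a-like cells it was at 220, 363 and 184 CPM. DN3-like cells had 182, 388 and 270 CPM. The log2 ratio between these gates was −0.28, 0.10 and 0.55, so the runs did not agree on a direction. Resting Il2ra+ Rag-negative cells had 426, 543 and 151 CPM. This was above DN3-like cells in the first and the second run and below them in the third, with intervals apart in each. Hes1 was then far lower in DN4-like cells, at 23.4 CPM (20.4 to 26.6) in the first run, and γδ-like cells had 80.6, 205 and 37.5 CPM. The second run gave the highest Hes1 value of the 3 in each of these gates except DN4-like cells, of which it held 29.

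Nrarp was the weakest of the targets by count. DN3-like cells gave 38, 47 and 42 Nrarp UMIs in the first, the second and the third run, or 7.03, 11.6 and 4.37 CPM. It was found in 1.66%, 2.17% and 0.540% of them after thinning. In DN2a-like cells the level was 1.35, 13.2 and 4.59 CPM, so no order of the stages was shared by the runs. The log2 ratio of DN3-like to DN2a-like cells was 2.38 (interval 0.43 to 5.48) in the first run, with the intervals on the levels apart. The DN2a-like value of that run rested on 2 Nrarp UMIs. In the second and the third run the ratio was −0.19 and −0.07, with overlapping intervals.

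The NK-receptor gate, 3485 cells without Il2ra that held transcripts such as Nkg7, Klrd1 and Xcl1, had more Nrarp than DN3-like cells in 2 of 3 runs, and Ptcra and Notch3 below their DN3-like levels in all 3. In the second and the third run, which held 2182 and 1219 of these cells, Dtx1 was at 29.1 and 26.5 CPM and Nrarp at 18.2 and 11.6 CPM. The Dtx1 level was below that of DN3-like cells in both runs. The log2 ratio was −0.33 (interval −0.64 to −0.03) with overlapping intervals on the levels, and −1.80 with intervals apart. In the third run the Dtx1 level overlapped that of B-like cells, at 26.9 CPM. The Nrarp values were above the DN3-like values of the same runs, with intervals on the levels apart only in the third run. The log2 ratio was 0.65 (interval 0.17 to 1.16) in the second run and 1.40 in the third. In the same cells Ptcra was at 13.0 and 6.32 CPM and Notch3 at 5.11 and 3.46 CPM. The cells also held Trac at 1147 and 482 CPM. The 84 cells of this gate in the first run had 1 Dtx1 UMI, 0 Nrarp UMIs (3 counts would be 5.97 CPM, and the Poisson interval reaches 7.34 CPM) and Trac at 41.8 CPM, so that run does not repeat the pattern.

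Differences between gates were then tested on UMI counts summed per gate and library, with the library as a block and all 35 sums of at least 20 cells in 1 fit (edgeR quasi-likelihood test, two-sided, Benjamini-Hochberg adjustment over 11609 genes). All 7 members passed the filter on low counts. The block takes out shifts that all gates of a library share. The spread in this test is thus how far differences between gates vary from library to library, pooled over all 35 sums. The DN3-like sums enter 3 of the 5 comparisons, which are therefore not independent.

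Neither of the early steps gave a called member. From Il2ra-negative Cpa3+ to DN2a-like cells 0 of 7 members passed an adjusted p of 0.05, against 0.0517% of all genes. An unadjusted p under 0.05 was found for 0 of 7, against 7.31% of all genes. From DN2a-like to DN2b-like cells 0 of 7 passed, against 0.0172% of all genes, but the unadjusted p was under 0.05 for 3 members, compared with 3.62% of all genes. These were Ptcra at a log2 fold of 1.90 ± 0.45 (SE), Dtx1 at 1.20 ± 0.41 and Notch3 at 0.99 ± 0.31. Ptcra, with an adjusted p of 0.403 in edgeR, was nearest to the threshold. DESeq2 also called 0 of 7 in both steps.

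From DN2b-like to DN3-like cells 1 of 7 members rose, against 0.121% of all genes called higher. This was Dtx1, with a log2 fold of 1.55 ± 0.36 (SE) and an adjusted p of 0.0394 (edgeR), and it was higher in 3 of 3 libraries. Ptcra had a log2 fold of 1.64 ± 0.42 and an adjusted p of 0.0703, and Notch3 had 0.89 ± 0.28 with an adjusted p of 0.200, so neither passed although both were higher in 3 of 3 libraries. Notch2, Hes1 and Nrarp had log2 folds of −0.01, 0.18 and 0.02. The Dtx1 call was lost with DESeq2, with its size factors in edgeR, without the block, without the second run, without the third, at most 5% mitochondrial counts, without cycling cells, with gates on thinned cells and without Cpa3 as a progenitor gene. Ptcra passed beside Dtx1 without the first run, with no filter on low counts, without Cst3 in the myeloid gate and with only the contrasted gates in the fit. With gates on thinned cells Ptcra passed in place of Dtx1. Over the 14 alternatives the Dtx1 log2 fold stayed between 0.96 and 1.87, with adjusted p-values from 0.00062 to 1.

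From DN3-like to cycling Il2ra+ Rag-negative cells 3 of 7 members fell, against 2.15% of all genes called lower. Notch3 changed by a log2 fold of −1.67 ± 0.28 (SE, adjusted p = 0.0018, edgeR). Dtx1 changed by −1.42 ± 0.32 (adjusted p = 0.0180) and Ptcra by −1.80 ± 0.41 (adjusted p = 0.0201). All of these were lower in 3 of 3 libraries. Notch1, at −0.63 ± 0.22, and Hes1, at −0.61 ± 0.34, were also lower in 3 of 3 libraries without passing the test. The count was 0 without the second run, and Notch3 alone passed without the third. By definition all cells of the cycling Il2ra+ Rag-negative gate were cycling, but only part of the DN3-like cells. Its Hes1 level was 130, 326 and 129 CPM, against 116, 311 and 224 CPM in cycling DN3-like cells alone. Hes1 was thus not lower in the first and the second run. Dtx1 was at 20.2, 14.3 and 27.5 CPM against 29.5, 25.2 and 70.5 CPM. Notch1, Notch3 and Ptcra were also lower in every run. The part of the cell cycle was not tested.

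From DN3-like to γδ-like cells 5 of 7 members fell, against 9.53% of all genes called lower. The log2 fold was −3.98 ± 0.48 (SE) for Ptcra, −2.51 ± 0.31 for Notch3, −2.02 ± 0.35 for Dtx1, −1.78 ± 0.24 for Notch1 and −1.63 ± 0.36 for Hes1. Their adjusted p-values in edgeR ran from 4.8e-07 for Ptcra to 0.00119 for Hes1. Each of the 5 was lower in 3 of 3 libraries. Notch2 had a log2 fold of 0.02 ± 0.27 and Nrarp of −0.84 ± 0.42 (adjusted p = 0.146), and neither passed. Over the 14 alternatives the adjusted p of Nrarp ran from 0.0181 to 0.872 (edgeR, or DESeq2 in its place), so Nrarp passed at the lower end. Without the third run, Ptcra, Notch3 and Notch1 still passed, while Dtx1, at −1.60, and Hes1, at −1.08, did not. The median over the members was −1.78, against 0.01 over all genes tested.

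**Figure D2:**
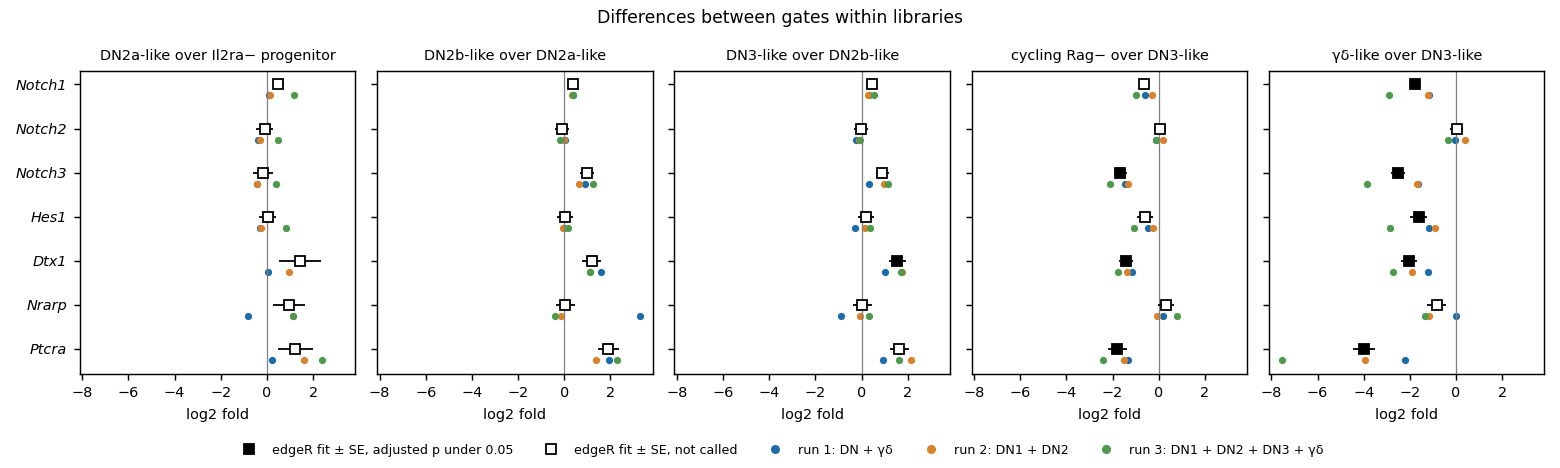
Log2 fold between gates (x axis) for each member (y axis) in the 5 comparisons, with squares for the edgeR estimate ± SE (filled where the adjusted p is under 0.05) and dots for the log2 ratio of CPM within each library. Filled squares appear only for Dtx1 from DN2b-like to DN3-like cells, for 3 members in cycling cells and for 5 members in γδ-like cells, and the third run lies farthest to the left for these in γδ-like cells.

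For the 5 members called in γδ-like over DN3-like cells, single libraries differed in size though not in sign. The Ptcra log2 ratio was −2.20, −3.94 and −7.56 in the 3 runs in order. For Notch1 it was −1.17, −1.22 and −2.92. The first run, in which γδ-like cells also held Cd8b1 and were more often cycling, gave the smallest Ptcra difference, and the part of those cells in the value was not tested. Set against DN2a-like cells, the γδ-like cells had a Ptcra log2 ratio of 0.68, −0.44 and −3.66, with no shared direction. The same ratio was −0.39, −0.05 and −1.53 for Notch3 and −1.45, −0.82 and −2.30 for Hes1, while Nrarp gave 2.37, −1.35 and −1.41. Notch1 gave −0.45, −0.61 and −1.98, and Notch2 −0.23, 0.27 and −0.59. Dtx1 was higher in γδ-like cells in every run, at 1.40, 0.94 and 0.05, but the interval of the third run (−0.41 to 0.51) held 0.

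DN4-like cells, taken by sort only in the first run, are described without a test. In that run the level of 5 of 7 members lay below that of DN3-like cells with intervals apart, against 17% of all genes tested. Hes1 showed the largest difference among them, 23.4 CPM against 182 CPM. Notch3 was at 11.4 CPM, Dtx1 at 10.5 CPM, Notch1 at 115 CPM and Ptcra at 112 CPM. Notch2 and Nrarp, at 9.11 and 4.08 CPM, overlapped DN3-like cells, although the interval on the Nrarp log2 ratio, −0.78 (−1.47 to −0.10), excluded 0. The second and the third run held 29 and 34 DN4-like cells. There the log2 ratio to DN3-like cells was −4.27 and −3.20 for Hes1, against −2.96 in the first run, and −1.98 and −2.20 for Ptcra, against −1.33. Of the DN4-like cells of the first run 96.5% were cycling by transcript, against 53.6% of its DN3-like cells, and their Cd8b1 level was 244 CPM. With cycling cells left out of both gates, 3 of 7 members lay below DN3-like cells with intervals apart. Only 34 DN4-like cells of the first run were then left, and the share over all genes was not counted at this setting.

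The members also varied within the DN3-like gate with cell cycle transcripts. Cycling DN3-like cells, defined by at least 3 UMIs of 10 cell cycle genes, had 116, 311 and 224 CPM of Hes1, against 403, 587 and 335 CPM in the DN3-like cells that were not cycling. Ptcra was at 199, 295 and 277 CPM in cycling and 560, 446 and 395 CPM in other cells. Dtx1 was at 29.5, 25.2 and 70.5 CPM against 100, 66.5 and 123 CPM. Notch1 and Notch3 moved the same way, so that 5 of 7 members were lower in the cycling cells of every library, against 32.4% of all genes tested. Nrarp was higher in cycling cells in every library, at 7.68, 13.0 and 4.81 CPM against 4.86, 7.98 and 3.75 CPM, but its intervals overlapped. The cycling cells held more RNA, with a median of 8883, 8166 and 8669 UMIs against 3033, 4150 and 6684 UMIs, and the part of cell size in these values was not tested.

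**Figure D3:**
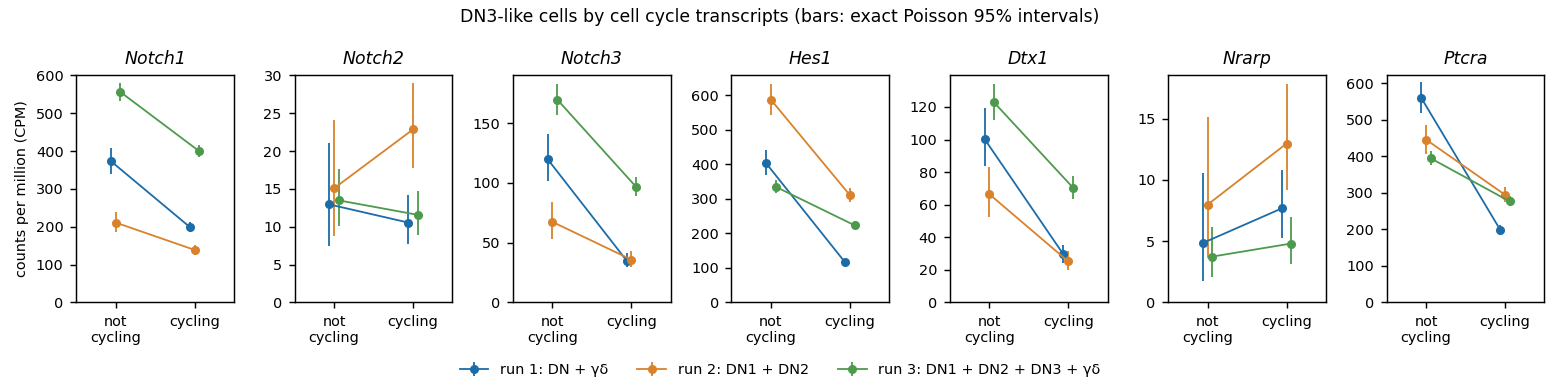
CPM of each member (y axis, linear from 0, own scale per panel) in DN3-like cells that were not cycling or cycling by transcript (x axis), by library, with exact Poisson 95% intervals as bars. Lines for Notch1, Notch3, Hes1, Dtx1 and Ptcra go down in all 3 libraries, and those for Nrarp go up with overlapping bars.

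Members were then compared cell by cell. Over all cells thinned to 2000 UMIs, Pearson's r for Notch1 with Ptcra was 0.16, 0.15 and 0.27 in the first, the second and the third run (5516, 8852 and 7463 cells). Dtx1 with Ptcra gave 0.18, 0.11 and 0.20, and Notch3 with Ptcra 0.16, 0.14 and 0.23. Of the 21 pairs of members, 5 had r over 0.1 in every library, the others being Hes1 with Ptcra and Notch1 with Hes1. Ptcra thus passed with 4 of the other 6 members, while 0.37% of all genes passed with it, although genes with few UMIs cannot reach such an r. Every pair that included Notch2 or Nrarp lay between −0.03 and 0.02. Cells of 1 library share their source, and the coefficients describe these cells without a test.

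DN3-like cells were high in several members at once, so the pairs were also taken within that gate. There 2 of 15 pairs had r over 0.1 in every library. Dtx1 with Ptcra gave 0.17, 0.17 and 0.15, and Notch3 with Dtx1 gave 0.14, 0.11 and 0.12. At 1000 UMIs per cell 0 pairs passed this limit, within the gate as over all cells. For Ptcra in this gate 0.103% of all genes passed the same limit, and for Dtx1 0.0431%, although here too genes with few UMIs cannot reach such an r. In the first run, 58 DN3-like cells held both Dtx1 and Ptcra, where independent detection would give 37.9. The second run gave 32 against 22.1 and the third 142 against 99.0.

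The same relation was seen when DN3-like cells were grouped by their Ptcra count. A Dtx1 UMI was found in 6.05% of the cells with 0 Ptcra UMIs, 11.5% of those with 1 and 22.2% of those with 2 or more in the first run. In the second run the shares were 4.94%, 8.86% and 15.3%, and in the third 11.2%, 25.6% and 28.7%. Notch1 went from 32.6% to 42.9% and 48.1% in the first run. In the others it went from 23.1% to 26.6% and 42.4%, and from 55.5% to 65.4% and 72.9%, respectively. Notch3 and Hes1 also went up over the 3 classes in every library. Thus 4 of the 6 other members did so, against 1.02% of all genes tested, although genes with few UMIs can seldom show such a rise. Notch2 and Nrarp did not go up in this way, and their shares stayed under 6% in every class. All cells were at 2000 UMIs here, so counted depth did not differ between the classes. Ptcra and these 4 members were also all higher in DN3-like cells that were not cycling, in every library. The part of the cell cycle in this relation, and in the correlations within the gate, was not tested.

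**Figure D4:**
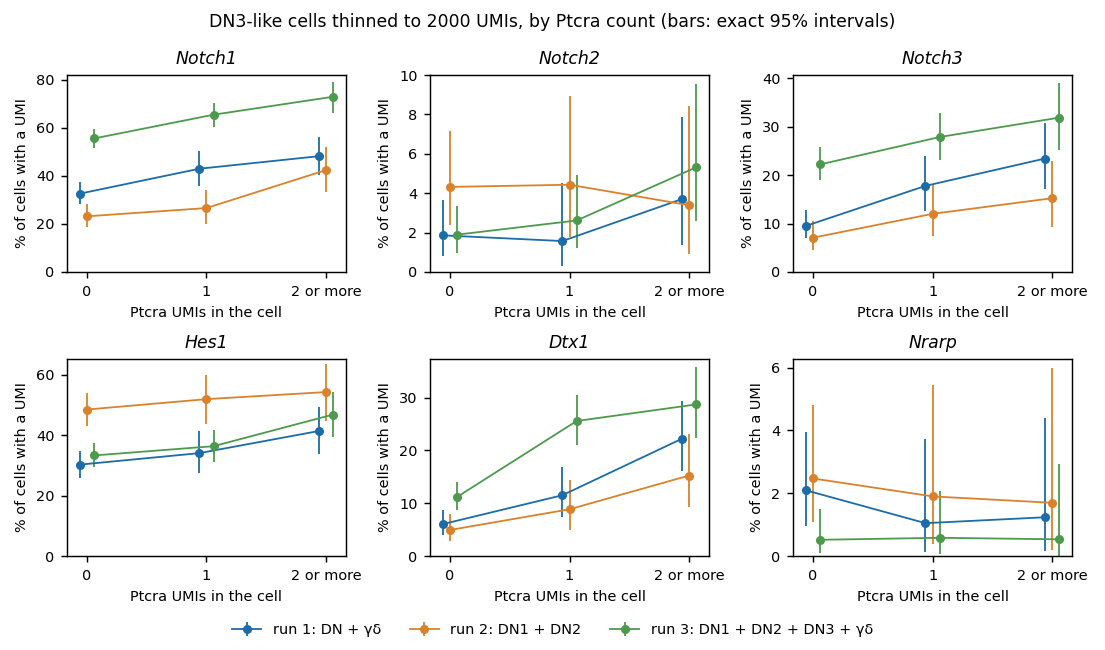
Percentage of DN3-like cells (thinned to 2000 UMIs) with at least 1 UMI of a member (y axis, linear from 0, own scale per panel) by the number of Ptcra UMIs in the cell (x axis) and library, with exact Clopper-Pearson 95% intervals as bars. Notch1, Notch3, Hes1 and Dtx1 go up from left to right in each library, for example Dtx1 from 6.05% to 22.2% in the first run.

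Members were also counted per cell. After thinning, at least 3 of the 7 members were detected together in 18.8%, 17.7% and 30.6% of DN3-like cells. The share was 2.17%, 1.55% and 2.07% in DN2a-like cells, 3.49%, 1.17% and 0.141% in γδ-like cells and 0.610% in the DN4-like cells of the first run. None of the 7 was detected in 21.8%, 18.8% and 11.6% of DN3-like cells and in 60.5%, 65.6% and 76.9% of γδ-like cells. DN3-like cells thus held 3 or more members more often than DN2a-like or γδ-like cells in every run, while the runs did not share the order of DN2a-like and γδ-like cells.

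**Figure D5:**
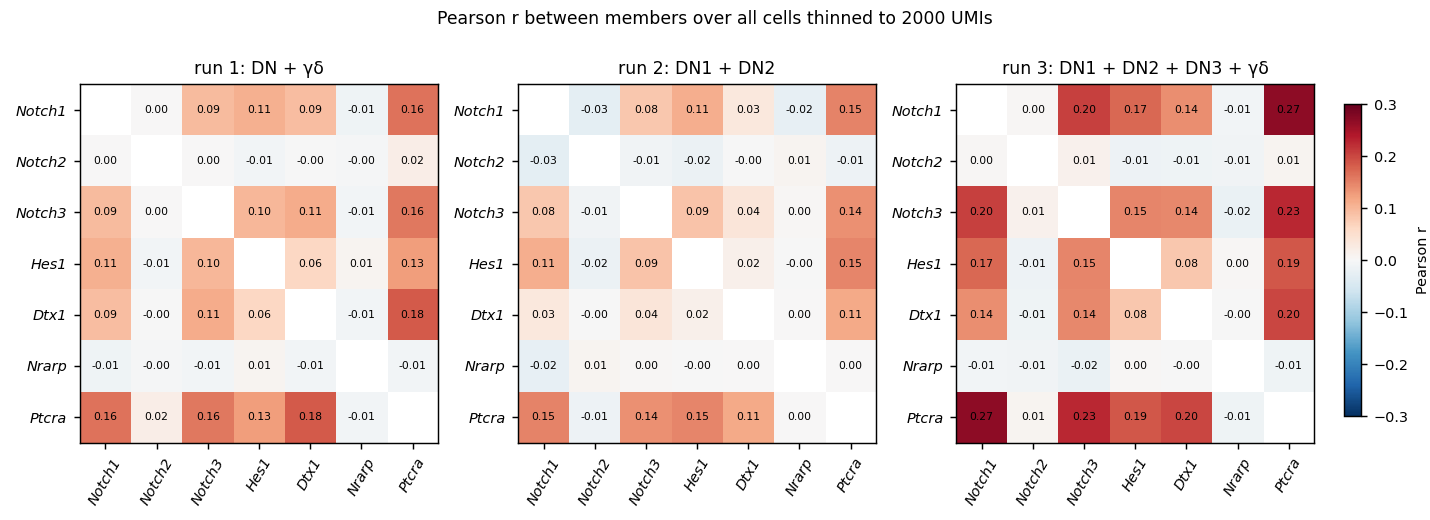
Pearson's r between members over all cells of each library thinned to 2000 UMIs, with color and printed value giving r (scale −0.3 to 0.3). The Ptcra row is the strongest with Notch1, Notch3, Hes1 and Dtx1, while the rows of Notch2 and Nrarp stay near 0.

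Over the 35 sums of gate and library, log2(CPM + 1) of Notch1 and Notch3 followed each other most closely among the members, with Pearson's r of 0.90. The genes most like Notch1 among the 7661 others with a mean of at least 10 CPM were Smarca4 (r = 0.94), Arpp21 (0.94) and Dgke (0.91). Those most like Notch3 were Arpp21 (0.93), Smarca4 (0.93) and Hdac4 (0.90), with Smarca4 and Arpp21 on both lists. For Ptcra they were Dgkeos (0.91), Gm525 (0.88) and Myzap (0.88), for Hes1 Gm5111 (0.92), Gm15518 (0.92) and Tpd52 (0.92), and for Dtx1 Tm6sf1 (0.78), Mtif2 (0.78) and Grasp (0.77). Notch2 was nearest to Gm12216 (0.76), Hspa1b (0.76) and Sfxn3 (0.74), and Nrarp to Nedd1 (0.61), Rps4x (0.59) and Slc39a1 (0.59). The sums of a library share their run, and the values are descriptions.

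Of 53 other Notch pathway genes, which comprised Notch4, ligands, processing enzymes, glycosyltransferases, nuclear cofactors, inhibitors and further targets, 45 had enough counts to be tested. From DN2b-like to DN3-like cells 2 of them rose and 0 fell in edgeR, both among the further targets, against 0.525% of all genes called in either direction. Lef1, a partner of TCF1, had a log2 fold of 1.45 ± 0.32 (SE, adjusted p = 0.0235) and Cd3e, a chain of the T cell receptor complex, had 0.68 ± 0.15 (adjusted p = 0.0235). From DN3-like to cycling Il2ra+ Rag-negative cells 1 fell, against 3.82% of all genes called. The gene that fell was Mib2, a ubiquitin ligase for Notch ligands, at −0.90 ± 0.21 (adjusted p = 0.0201).

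From DN3-like to γδ-like cells 6 of the 45 rose and 3 fell. This was not a larger share than the 24.4% of all genes called in either direction. Neurl3, related to the Neuralized ubiquitin ligases, rose by a log2 fold of 2.72 ± 0.55 (SE), Gata3, a T lineage transcription factor, by 1.77 ± 0.17 and Furin, the protease that cleaves Notch receptors during their maturation, by 1.35 ± 0.33. Their adjusted p-values in edgeR were 0.000469, 1.3e-08 and 0.00353. Neurl3 was low, at 0, 1.49 and 2.31 CPM in DN3-like cells. Among the genes that fell, the further targets Myc and Gfi1 were lower in every library. Their log2 folds were −1.08 ± 0.25 (adjusted p = 0.00192, edgeR) and −0.82 ± 0.18 (adjusted p = 0.00122). Of the 9 nuclear cofactors tested, which include Rbpj and the Mastermind genes, and of the 5 glycosyltransferases, 0 passed in any of the 5 comparisons in edgeR, and at most 1 of each group had an unadjusted p under 0.05 in a comparison. The median log2 fold of the 45 genes in γδ-like cells was 0.17, against −1.78 for the 7 members.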

How the data were processed

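The authors counted UMIs with Cell Ranger on the mm10 transcriptome in the cells that program called, and deposited the counts as whole numbers without normalization, cell filter or doublet removal. Version 4.0.0 made the third table per the file headers. Per the labels, later steps used R 3.6.3 and Seurat 2.3, which do not enter these counts.

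Cells outside 500 to 5000 genes or over 7% mitochondrial counts were removed, and 48 cells under 2000 UMIs were left out of thinned values. Doublets were kept in the values given. Scrublet in scanpy 1.11.5 marked 0, 431 and 221 cells, so its automatic limit did not work in the first run, and an alternative removed the highest 8% of scores in each library. Gates used raw UMIs in a fixed order: B-like, Cst3-led, γδ-like, NK-receptor, then the stages, and 2378 cells passed none. Sums of at least 20 cells per gate and library were tested with edgeR 4.0.16 (TMM, filterByExpr, quasi-likelihood) in R 4.3.3, and DESeq2 1.42.0 was an alternative. Library was a block in the fit, since the gates of a run come from 1 library, and deviations of same-run sums correlated at a median of 0.615 (lowest 0.19). On simulated counts for DN3-like over DN2b-like cells (11609 genes), edgeR recovered 73 of 100 genes changed by a log2 fold of 1 and 98 of 100 changed by 2, with 6 false among 177 calls. The simulation gave all genes the same dispersion and let all gates share the library effects. These shares therefore need not hold for single members, such as Ptcra with an SE of 0.42 in this comparison. Alternatives varied the normalization, filter, block, libraries, mitochondrial limit, doublets, gates and depth.

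All 7 members are named, with the 3 largest called pathway genes of each comparison that moved the same way in every library and the 3 genes most like each member. Myc and Gfi1, called lower in γδ-like cells, are named in addition. The members, gates and lists were chosen with earlier results of these data known. Upstream windows came from RefSeq (GRCm38.p6), where 6 of the 7 members matched.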

Additional observations from a re-analysis of the deposited data

Results flagged for a closer look

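Hes1 changed in opposite directions from Il2ra-negative Cpa3+ to DN2a-like cells in different runs, by a log2 ratio of 0.81 in the third run and −0.28 in the second, with intervals that exclude 0 in both. The levels were 105 and 184 CPM in the third run and 439 and 363 CPM in the second. The difference between the runs was not tested, since each sort was made once, and the third run held 53 Il2ra-negative Cpa3+ cells.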

How the results depend on the processing

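From DN2b-like to DN3-like cells, the 1 called member became 0 with DESeq2, with DESeq2-type size factors, at most 5% mitochondrial counts, cycling cells left out or progenitor genes without Cpa3. It became 2 with no filter on low counts, with the myeloid gate without Cst3 or with only the contrasted gates in the fit, and 0 to 2 when a library was left out. From DN3-like to cycling Il2ra+ Rag-negative cells, the 3 called members became 5 with gates called on thinned cells, and 0 to 3 when a library was left out. For γδ-like cells the 5 became 3 to 6 over the alternatives, with 3 when the third run was left out. The 6 included Nrarp. Without the library block, the called members were 0, 0 and 3 in these comparisons, and the genes called 2, 2 and 253, against 61, 444 and 2838 with the block. All genes called were 171, 922 and 3951 without the first run, 2, 3 and 1057 without the second, and 7, 3 and 387 without the third. Gates on thinned cells gave 33 and 3028 genes in the first and second of them, no filter 93 in the first, and cycling cells left out 10. Leaving out Cst3 gave 199, leaving out Cpa3 29 and 227, and fitting only the contrasted gates 216 and 876. From Il2ra-negative Cpa3+ to DN2a-like cells the genes called were 1 to 38 over the alternatives, against 6, and from DN2a-like to DN2b-like cells 2 to 8, against 2. The cause of these changes was not tested, except that fewer libraries enter when 1 is left out. The 5 pairs with r over 0.1 in every library became 0 at 1000 UMIs per cell, where fewer UMIs are left to correlate. Over all alternatives, 0 called log2 folds of a member changed sign, 21 were no longer past the threshold, 8 newly passed it, and 36 that were not called changed sign. DN3-like cells were the highest of the 4 stage gates in 13 to 16 of 21 combinations of member and library. The share over all genes was not counted for this measure. The alternatives without Cst3 or Cpa3 and with only the contrasted gates were chosen after seeing the data. With 1 library per sort, n is at most 3 for any gate. Nrarp had the fewest UMIs of the members in every library.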
